A study of Mus musculus with 2 samples.

Results

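Receptors for glutamate, GABA and glycine carry most of the fast excitation and inhibition of the spinal cord. Their genes were chosen by symbol alone, with no measured value: every gene named Gria, Grin, Grik, Grid or Grm for glutamate, Gabr or Gabbr for GABA, and Glra or Glrb for glycine, followed by its subunit number or letter. The rule found 52 of the 32285 genes of the feature table. They fall into 15 roles: subunits of AMPA, NMDA, kainate and delta receptors, metabotropic glutamate receptors of groups I, II and III, alpha, beta, gamma, rho and other subunits of GABA-A receptors, GABA-B receptors, and the alpha and beta subunits of glycine receptors.

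The levels come from nuclei of injured mouse spinal cord. The AEVs library held cord of wild-type C57BL/6 mice, 6 to 8 weeks old, that were given athlete-derived extracellular vesicles by tail vein once a day for 5 days, each dose with 100 µg of vesicle protein in 100 µL of PBS. The PBS library held cord of mice of the same strain and age given 100 µL of PBS alone. The mice of both libraries had a spinal contusion at T10, received antibiotics and were sampled on day 7, and each library is 1 pool of 3 mice. With 1 library per group no difference between AEVs and PBS has a replicate check, and the 95% intervals given here cover counting error only.

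AMPA, NMDA and kainate receptors are glutamate-gated cation channels; the AMPA subunit GluA2 limits calcium entry, and NMDA receptors join the obligatory GluN1 to GluN2 or GluN3 subunits. GABA-A and glycine receptors are chloride channels, many of them anchored at synapses by gephyrin, and inhibition in the spinal cord uses both. Metabotropic receptors act through G proteins, and some of these receptors are also carried by glia: oligodendrocyte precursors receive synapses from neurons, and astrocytes respond to GABA and glutamate.

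After filtering, the AEVs library kept 15647 nuclei with 68824403 unique molecular identifiers (UMIs, counted transcripts), and the PBS library kept 13859 nuclei with 70636535. The share of UMIs from receptor genes was 1.28% in AEVs and 1.39% in PBS. Clusters made without the receptor genes were named by markers, hence "-like". Neuron-like nuclei numbered 5123 in AEVs and 4182 in PBS, with median depths of 7239 and 8762.5 UMIs. By transmitter genes they included glycinergic (1096 and 808 nuclei), GABAergic (542 and 329), dorsal-type excitatory (1953 and 1221), other excitatory (312 and 228) and cholinergic (176 and 254) subtypes, beside shallow, mixed and unassigned sub-clusters. Of the markers of the neuron, astrocyte, oligodendrocyte and precursor classes, 10 of 10 were detected in each. The oligodendrocyte precursor-like nuclei were a single cluster, in which 6 markers of differentiating oligodendrocytes were raised over the median cluster as well. Gpr17, one of these, was among its leading genes, so the class can hold differentiating cells beside precursors. Barcodes found in both libraries made up 1.06% of the smaller set of kept nuclei.

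A level is given in CPM, a gene's UMIs per 1000000 UMIs of a class in a library. Levels are compared for 1 gene between classes or libraries, never between genes. Neuron markers were also counted in other classes. Over 15 such markers, astrocyte-like nuclei had a median of 11.2% of the neuron level in AEVs and 14.4% in PBS. The AEVs and PBS shares were 4.94% and 6.18% for oligodendrocyte-like, 11.2% and 7.31% for oligodendrocyte precursor-like and 7.58% and 9.33% for microglia-like nuclei. The source of these marker UMIs was not tested. The median share of a class stands in here for free RNA, meaning RNA of broken neurons in other droplets. A member was taken as above free RNA where its level was at least 3 times that share of its own neuron level in both libraries, with at least 20 UMIs in each. Single neuron markers lay far above the median. Nefl reached 94.9% in AEVs and 65.0% in PBS in astrocyte-like nuclei, and Gad1 42.5% and 31.9% in precursors. The threshold is thus a rough one that covers RNA of neurons only, and a gene past it can still come from free RNA. A gene below it was not shown to be absent from the class.

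Of the members, 46 had at least 100 UMIs over both libraries. The other 6 were Gabra6, Gabrr1, Gabrr3, Gabrp, Gabrd and Grm6; of these Gabrd, for the delta subunit of GABA-A receptors outside synapses, had the most UMIs over all nuclei, 42 in AEVs and 25 in PBS. Gabrr3 had 9 and 3, Gabra6 2 and 1, and Gabrp and Grm6 1 and 1 each. The class with the highest level was the same in AEVs and PBS for 36 of the 46. It was the GABAergic subtype for 9 of them, the dorsal-type excitatory subtype for another 9, astrocyte-like nuclei for 6, the cholinergic subtype for 4, the other excitatory subtype for 3, the glycinergic subtype for 2, oligodendrocyte-like nuclei for 2 and precursors for 1.

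**Figure D1:**
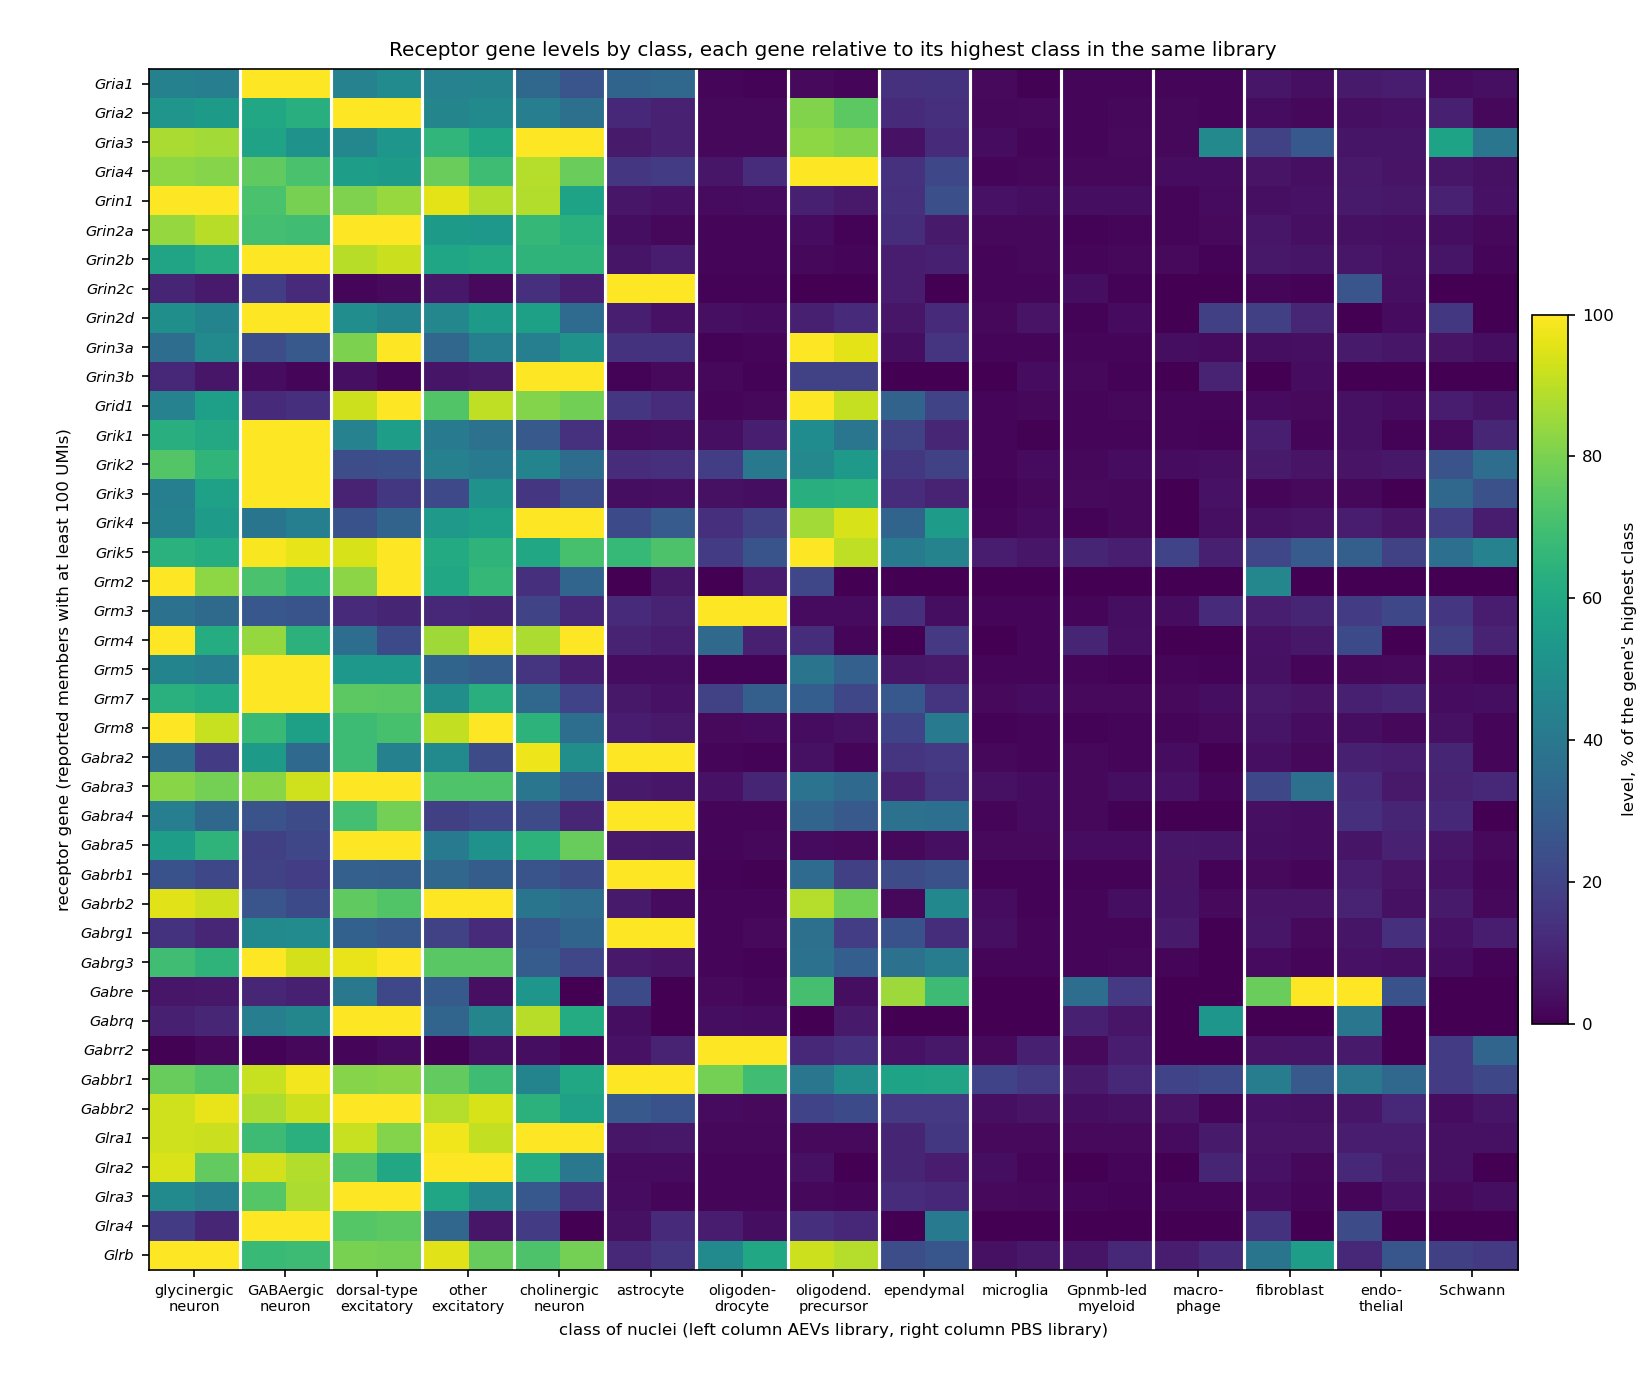
Level of the receptor genes described here that had at least 100 UMIs (down the page) in each class of nuclei (across, AEVs column left of PBS column), as a percent of that gene's highest class in the same library. Most genes peak in a neuron subtype, while Gabrr2 and Grm3 peak in oligodendrocyte-like nuclei and Gabra2, Gabra4, Gabrb1, Gabrg1, Gabbr1 and Grin2c in astrocyte-like nuclei.

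The AMPA receptor genes were divided among classes. Gria1, which encodes GluA1, measured 952 in AEVs and 993 in PBS in GABAergic neurons, 2.26 and 2.07 times the level of the next class, dorsal-type excitatory neurons. Gria2, for the calcium-limiting GluA2, was highest in dorsal-type excitatory neurons, at 1826 in AEVs and 1606 in PBS, and gave 51.5% and 45.9% of the AMPA gene UMIs there in AEVs and PBS. In the other neuron subtypes Gria2 gave 23.4% to 29.1% in AEVs and 19.6% to 27.0% in PBS. Gria3 was highest in cholinergic neurons, at 670.0 in AEVs and 666 in PBS, 1.14 and 1.16 times the level in glycinergic neurons.

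Gria4 was highest outside neurons, in oligodendrocyte precursor-like nuclei, at 1763 in AEVs and 1954 in PBS. The same nuclei held Gria2 at 1478 in AEVs and 1203 in PBS, second to the dorsal-type excitatory neurons. Gria1 was nearly missing from them: it gave 0.605% of their AMPA gene UMIs in AEVs and 0.473% in PBS, against 36.8% of those of astrocyte-like nuclei in AEVs and 37.9% in PBS. A gene's length and the part of its transcripts that is read also weigh in such shares, so they are compared between classes only.

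**Figure D2:**
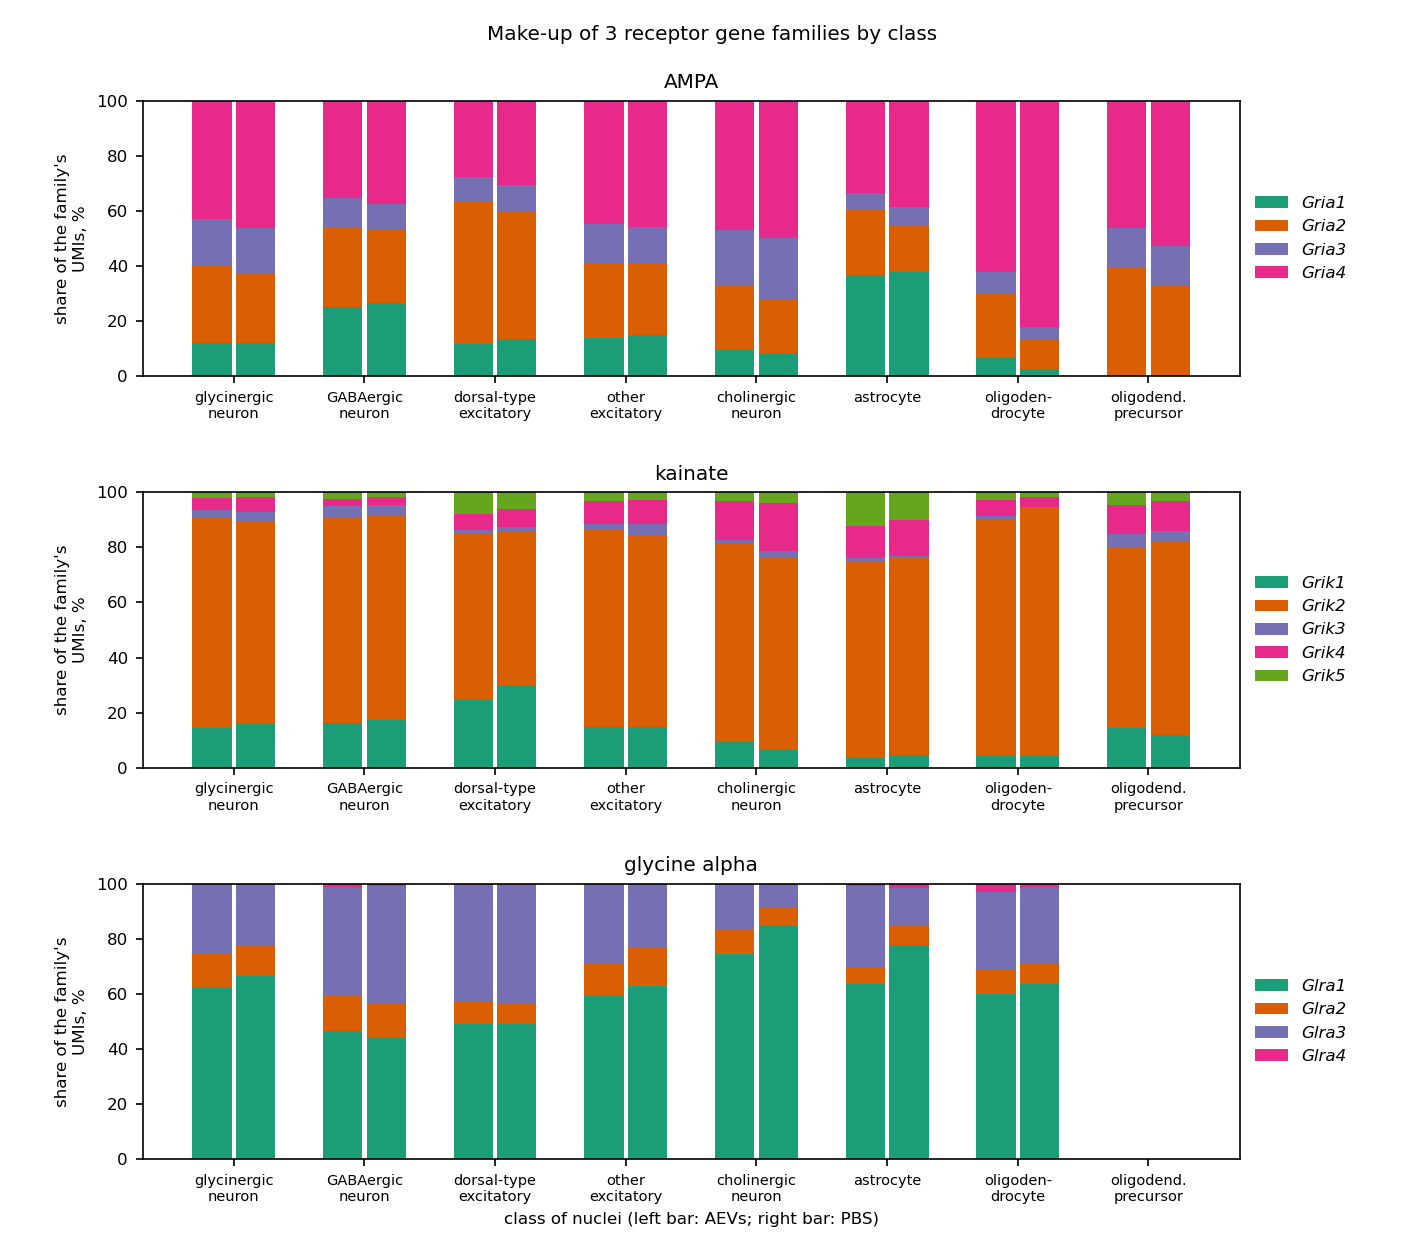
Share of the UMIs of a receptor family (percent, stacked bars) that each gene gives in each class of nuclei, with the AEVs bar left of the PBS bar, for AMPA subunits, kainate subunits and glycine receptor alpha subunits. A class with under 50 UMIs of a family in a library has no bar. Gria2 gives 51.5% in AEVs and 45.9% in PBS in dorsal-type excitatory neurons, Grik2 gives 85.8% in AEVs and 90.0% in PBS in oligodendrocyte-like nuclei, and Glra1 gives 74.4% in AEVs and 84.5% in PBS in cholinergic neurons.

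Among the NMDA receptor genes, Grin1 for the obligatory subunit was highest in glycinergic neurons, at 301 in AEVs and 260.1 in PBS, with other excitatory neurons next at 289 and 230.2. Grin2a was highest in dorsal-type excitatory neurons, at 509.9 in AEVs and 571 in PBS, and Grin2b in GABAergic neurons, at 689 and 733. Grin2d also peaked in GABAergic neurons, at 57.9 in AEVs and 59.7 in PBS, 1.76 and 1.84 times the next class. These 4 genes did not pass the free-RNA threshold in astrocyte-like or oligodendrocyte-like nuclei.

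Grin2c, which encodes GluN2C, had its peak in astrocyte-like nuclei instead. It measured 46.5 in AEVs (40.3 to 53.3) and 41.6 in PBS (35.3 to 48.6) there, against 3.51 in AEVs and 2.44 in PBS over all neuron-like nuclei. It gave 42.6% of the GluN2 gene UMIs of astrocyte-like nuclei in AEVs and 36.3% in PBS. Within the class it followed the cluster led by Slc7a10, an amino acid transporter gene, at 78.3 in AEVs and 61.1 in PBS; the cluster led by the complement gene C3 held few UMIs of it, for levels of 4.26 and 10.9. A Grin2c UMI was found in 14.4% of astrocyte-like nuclei in AEVs and 14.1% in PBS (median depths 2851 and 3423 UMIs), and in 0.0941% of microglia-like nuclei in AEVs and 0.107% in PBS (median depths 1472 and 1606). At 1000 UMIs per nucleus it was found in 5.06% of astrocyte-like nuclei in AEVs and 5.05% in PBS.

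Grin3a, for a GluN3 subunit that lowers calcium entry, was highest in precursors in AEVs and in dorsal-type excitatory neurons in PBS: precursors had 635 in AEVs and 507 in PBS and the dorsal-type neurons 509.8 and 528. Grin3b, for the other GluN3 subunit, was concentrated in cholinergic neurons. It measured 25.9 in AEVs (19.6 to 33.6) and 40.3 in PBS (32.4 to 49.5) there, from 56 and 91 UMIs, which is 5.13 and 5.20 times the next class, the precursors. It gave 8.63% of the GluN3 gene UMIs of cholinergic neurons in AEVs and 13.1% in PBS.

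The kainate receptor genes Grik1, Grik2 and Grik3, for subunits that can form channels alone, were each highest in GABAergic neurons. Grik1 measured 618 in AEVs and 747 in PBS, 1.59 and 1.65 times the next class, and Grik2 measured 2849 in AEVs and 3232 in PBS, 1.37 and 1.53 times the next. Grik3 measured 165 in AEVs and 154 in PBS, with precursors next at 103 and 98.7. Grik4, for a subunit that needs such a partner, was highest in cholinergic neurons at 257 in AEVs and 288 in PBS, with precursors close at 222 and 271. Grik5, of the same kind, had 93.1 in AEVs and 78.5 in PBS in precursors and 92.2 and 83.7 in GABAergic neurons.

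Grid1 encodes a delta receptor, a synaptic organiser that binds cerebellins. It measured 771 in AEVs and 865 in PBS in precursors and 712 and 947 in dorsal-type excitatory neurons, and 92.9 and 128 in GABAergic neurons. Precursors led in AEVs and the dorsal-type neurons in PBS, so the order of these classes turned between the libraries.

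Of the metabotropic receptors, Grm5 of group I was highest in GABAergic neurons, at 3702 in AEVs and 4311 in PBS, 1.88 and 1.88 times the dorsal-type excitatory neurons. Grm7, a presynaptic group III receptor, peaked in GABAergic neurons at 3001 in AEVs and 3894 in PBS. Grm8, of group III, had 356 in AEVs and 416 in PBS in glycinergic and 323 and 455 in other excitatory neurons, and led in a different one of them in each library. Grm2, of group II, had 107 and 124 UMIs over all nuclei.

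Grm3, a group II receptor, was highest in oligodendrocyte-like nuclei, at 698 in AEVs (683 to 713) and 825 in PBS (809 to 842), 2.68 and 2.90 times the glycinergic neurons. It gave 94.3% of the group I and II gene UMIs there in AEVs and 95.3% in PBS, and 4.67% and 4.62% in GABAergic neurons. Across oligodendrocyte-like clusters it had 929 in AEVs and 1131 in PBS in the cluster led by Opalin, 957 and 1149 in that led by Apod, 484 and 525 in that led by Klk6 and 51.6 and 39.6 in that led by Gm32122. It was also above free RNA in astrocyte-like (82.4 and 77.6), fibroblast-like (60.0 and 86.9), endothelial-like (121 and 179.8) and Schwann-like nuclei (112 and 67.2). That threshold covers free RNA of neurons, not of oligodendrocytes, where Grm3 was highest. Summed oligodendrocyte markers were 2321 in AEVs and 2689 in PBS in astrocyte-like nuclei, against 21553 and 21971 in oligodendrocyte-like nuclei. The part of oligodendrocyte RNA in these Grm3 levels was not tested. Schwann-like nuclei held 2 more members above free RNA, Gria3 (388 and 263) and Grik2 (729 and 1153). For Grik2, at 515 in AEVs and 1304 in PBS in oligodendrocyte-like nuclei, the part of oligodendrocyte RNA was not tested either.

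Many GABA-A receptor genes lie in groups on the chromosomes (build mm10, GENCODE annotation), and members of a group often shared their leading class. On chromosome 5 (chr5:70751047-72149037), Gabrg1, Gabra2, Gabra4 and Gabrb1 were each highest in astrocyte-like nuclei in both libraries. Gabrg1 measured 131 in AEVs and 128 in PBS there and Gabra4 80.2 and 66.2. Gabra2 measured 424 in AEVs and 752 in PBS, 1.03 and 2.02 times the next class, cholinergic neurons, so its lead in AEVs was slight. Gabrb1 measured 1982 in AEVs and 2159.9 in PBS, 2.87 and 3.30 times the next class, and gave 96.4% of the beta gene UMIs of astrocyte-like nuclei in AEVs and 97.1% in PBS. Gabrg1 gave 68.4% of their gamma gene UMIs in AEVs and 68.3% in PBS. In the neuron subtypes it gave 2.67% to 9.46% in AEVs and 1.71% to 12.2% in PBS.

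On chromosome 7, Gabra5 was highest in dorsal-type excitatory neurons in both libraries, at 153 in AEVs and 132 in PBS. Gabrg3, close to it, had 770.5 in AEVs and 989.8 in PBS in these neurons and 798 and 927 in GABAergic neurons. Gabrb2, on chromosome 11, was highest in other excitatory neurons at 168 in AEVs and 147 in PBS. On the X chromosome, Gabra3 and the theta subunit gene Gabrq were highest in dorsal-type excitatory neurons, Gabra3 at 187 in AEVs and 202 in PBS and Gabrq at 6.23 and 7.19, while Gabre, for the epsilon subunit, had 91 and 105 UMIs over all nuclei and no shared leading class.

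**Figure D3:**
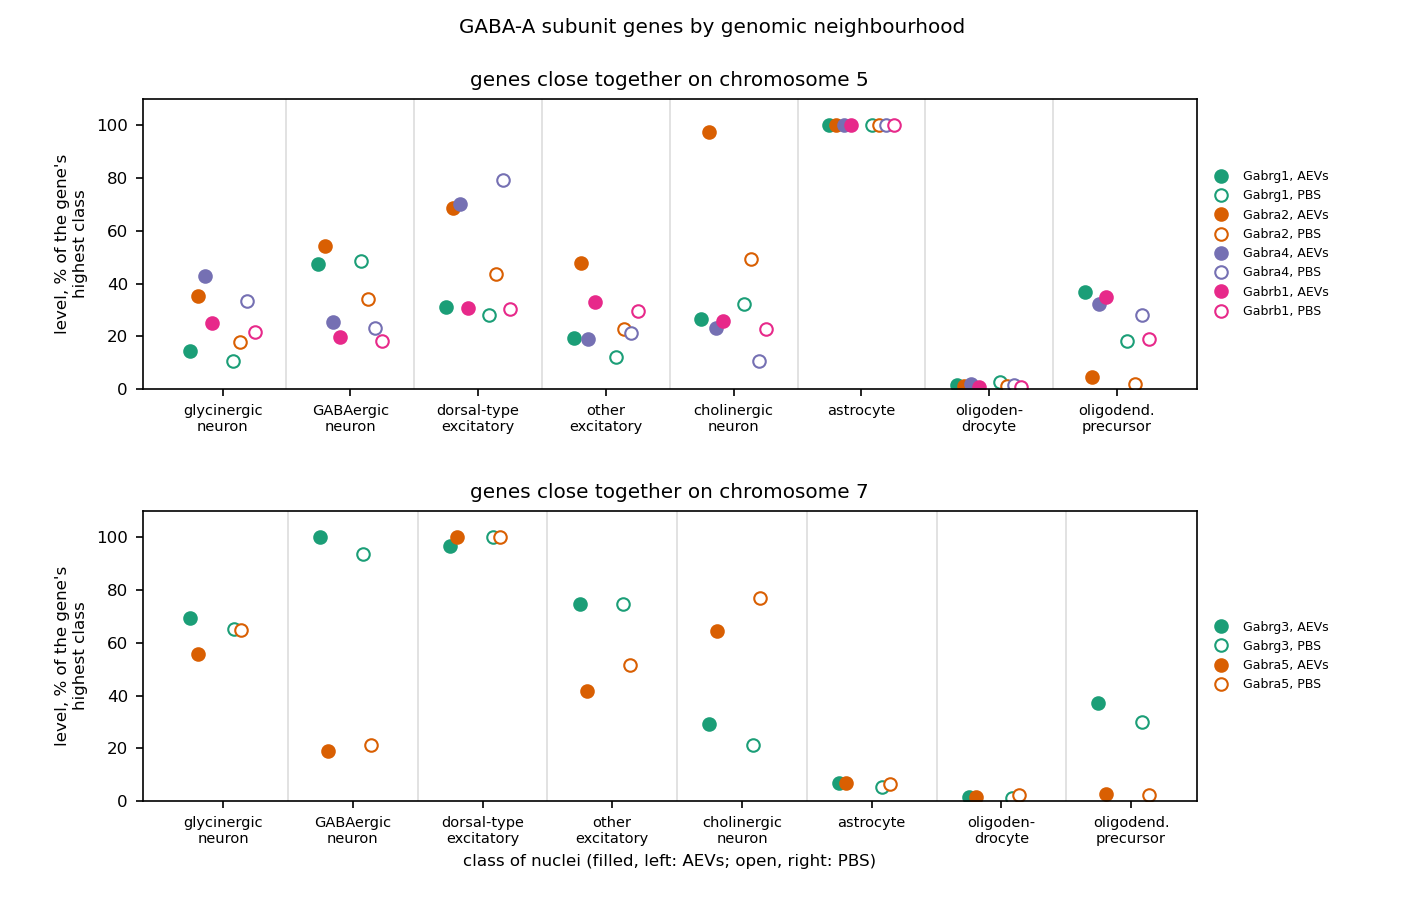
Levels of GABA-A subunit genes that are close together on chromosomes 5 and 7, in 8 classes of nuclei, as a percent of each gene's highest class in the same library (filled points AEVs, open points PBS to their right). The 4 genes of chromosome 5 reach 100% in astrocyte-like nuclei in both libraries.

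Gabra4 and Gabrb1 start 387 bases apart on opposite strands and share a leading class, so both promoters are shown, Gabra4 at chr5:71658259-71658558 on the minus strand and the first Gabrb1 start at chr5:71657671-71657970 on the plus strand. The sequences are from RefSeq (build GRCm38.p6) and run 5′ to 3′ on the gene's strand from 250 bases before to 50 bases after the start. Capitals mark a match of ACAATG, a core of SOX protein sites, or of its reverse complement CATTGT.
Gabra4: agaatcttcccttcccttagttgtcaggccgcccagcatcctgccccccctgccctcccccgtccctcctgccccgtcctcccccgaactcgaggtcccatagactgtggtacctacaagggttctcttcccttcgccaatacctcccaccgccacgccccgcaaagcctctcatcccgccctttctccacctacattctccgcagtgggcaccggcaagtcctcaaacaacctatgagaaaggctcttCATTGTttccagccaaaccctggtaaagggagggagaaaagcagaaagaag
Gabrb1: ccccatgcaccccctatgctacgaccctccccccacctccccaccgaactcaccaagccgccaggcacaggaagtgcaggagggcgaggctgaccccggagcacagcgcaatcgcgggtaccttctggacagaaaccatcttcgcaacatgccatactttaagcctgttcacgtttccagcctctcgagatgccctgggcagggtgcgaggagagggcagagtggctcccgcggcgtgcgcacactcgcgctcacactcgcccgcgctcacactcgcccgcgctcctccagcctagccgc
The Gabra4 window holds 12 CG pairs and the Gabrb1 window 25, against a median of 7 over 32851 promoters. The letters ACAATG occur, on either strand, in 12.6% of these promoters, and the match is a description only. Whether reads were counted by strand is not given in the sources used here; without strand, reads of overlapping genes on opposite strands, as Gabra4 and Gabrb1 are, cannot be told apart.

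The GABA-B genes, whose products pair to form 1 receptor, differed in reach. Gabbr2 was highest in dorsal-type excitatory neurons at 179 in AEVs and 224 in PBS, with 5.33 and 5.93 in oligodendrocyte-like nuclei. Gabbr1 was highest in astrocyte-like nuclei at 209 in AEVs and 206 in PBS, close to GABAergic neurons at 191 and 202, and was above free RNA in oligodendrocyte-like nuclei (165 and 143) and in fibroblast-like nuclei (88.4 and 57.4).

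Of the glycine receptor genes, Glra1, for the main adult alpha subunit, was highest in cholinergic neurons at 332 in AEVs and 359 in PBS, 1.02 and 1.09 times the next class. It gave 74.4% of the alpha gene UMIs there in AEVs and 84.5% in PBS and 46.6% and 43.9% in GABAergic neurons. Glra3, which in mouse dorsal horn serves inhibition of pain pathways, was highest in dorsal-type excitatory neurons at 262 in AEVs and 255 in PBS. Glra2 was highest in other excitatory neurons at 66.6 in AEVs and 72.2 in PBS and Glra4 in GABAergic neurons at 5.32 and 4.50.

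Glrb, for the beta subunit that binds gephyrin, was found in more classes than the alpha subunit genes. It measured 295 in AEVs and 283 in PBS in glycinergic neurons, 273 and 251 in precursors, 139 and 169.6 in oligodendrocyte-like nuclei and 115 and 158 in fibroblast-like nuclei, all 3 non-neuronal classes being above free RNA. The alpha subunit genes did not pass that threshold in precursors or oligodendrocyte-like nuclei.

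Gabrr2 encodes rho2, a subunit of GABA receptors best known from the retina, and its oligodendrocyte-like level differed between the libraries, with AEVs above PBS. It measured 105 in AEVs (99.3 to 111) and 29.5 in PBS (26.5 to 32.7), from 1298 and 353 UMIs. The ratio was 3.56-fold, with a log2 ratio of 1.83 (1.66 to 2.01). A Gabrr2 UMI was found in 15.7% of these nuclei in AEVs and 6.54% in PBS (median depths 2006 and 2379 UMIs), and in 0.376% of microglia-like nuclei in AEVs and 0.427% in PBS (median depths 1472 and 1606). At 1000 UMIs per nucleus the shares were 9.84% in AEVs and 2.57% in PBS in oligodendrocyte-like, 0.210% and 0.240% in microglia-like and 0.272% and 0.162% in neuron-like nuclei.

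Gabrr2 was higher in AEVs in both clusters that held most of its UMIs. The Opalin-led cluster, which has Gabrr2 among its leading genes although receptor genes were left out of the clustering, had 211 in AEVs and 55.6 in PBS, 3.80-fold. The Apod-led cluster had 82.5 in AEVs and 22.9 in PBS, 3.61-fold. The Klk6-led cluster had 12.4 and 6.65 and the Gm32122-led cluster 4.69 and 6.28, while the small Ifi27l2a-led cluster had 11 UMIs in AEVs and 1 in PBS. The 10 oligodendrocyte markers had a summed level in this class of 21553 in AEVs and 21971 in PBS.

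The Gabrr2 promoter (chr4:33062862-33063161, plus strand) is shown beside that of Gabrr1, the rho1 gene (chr4:33132306-33132605, plus strand), which starts 69.4 kb away and had 2 UMIs over all nuclei in AEVs and 0 in PBS. Both are from RefSeq (GRCm38.p6), 5′ to 3′ over the same span around the start. Capitals mark TTGGCA, a half-site of nuclear factor I proteins, or its reverse complement TGCCAA.
Gabrr2: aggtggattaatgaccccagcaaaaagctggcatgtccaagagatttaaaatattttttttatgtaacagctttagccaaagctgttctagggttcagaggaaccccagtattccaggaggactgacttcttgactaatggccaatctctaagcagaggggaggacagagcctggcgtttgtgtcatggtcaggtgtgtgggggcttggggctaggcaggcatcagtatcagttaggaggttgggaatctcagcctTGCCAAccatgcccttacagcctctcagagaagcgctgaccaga
Gabrr1: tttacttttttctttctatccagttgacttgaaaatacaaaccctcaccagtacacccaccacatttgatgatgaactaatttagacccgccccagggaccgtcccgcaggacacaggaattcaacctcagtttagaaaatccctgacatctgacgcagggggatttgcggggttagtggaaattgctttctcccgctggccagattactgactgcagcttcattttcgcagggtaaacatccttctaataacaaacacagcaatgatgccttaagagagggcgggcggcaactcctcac
The Gabrr2 window has 2 CG pairs and 1 match, and the Gabrr1 window 9 CG pairs and no match. The letters occur in 14.1% of all promoters of this length and in 11.6% of the 43 promoters of members. The SOX letters ACAATG and ACAAAG were searched here as well and had no match in either window. The marked motif is thus the one that matched, and the match is a description only. Among neighbouring genes in oligodendrocyte-like nuclei, the ratio of AEVs over PBS was 1.66 for 4933421O10Rik, the one neighbour past 1.5-fold, from 113 UMIs in AEVs and 66 in PBS. It was 1.40 for Ube2j1, 1.46 for Pnrc1, 1.12 for Lyrm2, 0.985 for Rngtt and 0.909 for Mdn1.

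In oligodendrocyte-like nuclei 8 of the 32 members with at least 100 UMIs differed by at least 1.5-fold, beside 16.9% of all 10950 genes that passed the same floor. Of these, 2 were higher in AEVs (beside 12.5% of all genes) and 6 lower (beside 4.44%). The median log2 ratio was -0.15 over the members and 0.12 over all genes. Those above free RNA were Gabrr2, which was higher, and Grik2, Grm7 and Grik4, which were lower.

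Grik2, for the kainate subunit GluK2, measured 515 in AEVs (502 to 527) and 1304 in PBS (1284 to 1325), a log2 ratio of -1.34 (-1.38 to -1.30). A Grik2 UMI was found in 53.5% of these nuclei in AEVs and 85.2% in PBS and in 6.30% of microglia-like nuclei in AEVs and 9.08% in PBS. At 1000 UMIs per nucleus it was found in 35.7% of oligodendrocyte-like nuclei in AEVs and 64.3% in PBS and 4.31% of microglia-like nuclei in AEVs and 7.08% in PBS. Grik2 was lower in AEVs in all 5 oligodendrocyte-like clusters, with log2 ratios from -1.51 in the Klk6-led to -0.63 in the Ifi27l2a-led cluster. The annotated genes Gm26543 and Gm47018 overlap Grik2 on the same strand, and part of its count could be theirs.

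Grm7 measured 581 in AEVs (568 to 595) and 1174 in PBS (1154 to 1193), a log2 ratio of -1.01 (-1.05 to -0.97). It was lower in AEVs in all 5 clusters, but unevenly, at 1144 in AEVs and 1581 in PBS in the Opalin-led cluster, 478 and 1892 in the Apod-led and 76.6 and 453 in the Klk6-led cluster. Grik4 measured 35.9 in AEVs and 54.3 in PBS, a log2 ratio of -0.60 (-0.77 to -0.42). It was under 1.5-fold with doublet calls kept (-0.37), as a mean over nuclei (-0.49) and at 1000 UMIs per nucleus (-0.49). Grik4 was lower in AEVs in the Apod-led, Klk6-led and Gm32122-led clusters, and in the Opalin-led cluster it had 56.9 in AEVs and 53.7 in PBS.

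The other 4 members past 1.5-fold in this class were not above free RNA. Gria4 had 106 in AEVs and 249 in PBS, a log2 ratio of -1.23 (-1.33 to -1.14), Grik1 had 25.5 in AEVs and 62.8 in PBS and Gabra3 9.13 and 21.2. The threshold was applied to the whole class, not by cluster. Grik1 had 62.6 in AEVs and 127 in PBS in the Klk6-led, 38.4 and 132 in the Gm32122-led and 9.77 and 18.0 in the Opalin-led cluster. Gria4 was lower in AEVs in each cluster with at least 100 UMIs of it, with log2 ratios from -1.51 in the Apod-led to -1.07 in the Opalin-led cluster. Grm4 was higher in AEVs, with 5.66 in AEVs and 2.92 in PBS, from 70 and 35 UMIs, and its log2 ratio of 0.95 became -0.25 with doublet calls kept. Summed markers of neurons in this class were 401 in AEVs and 425 in PBS and those of erythroid cells 82.4 and 33.1; their part in these differences was not tested. Grik5 was also above free RNA, with 16.6 in AEVs and 22.7 in PBS, and was under 1.5-fold.

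**Figure D4:**
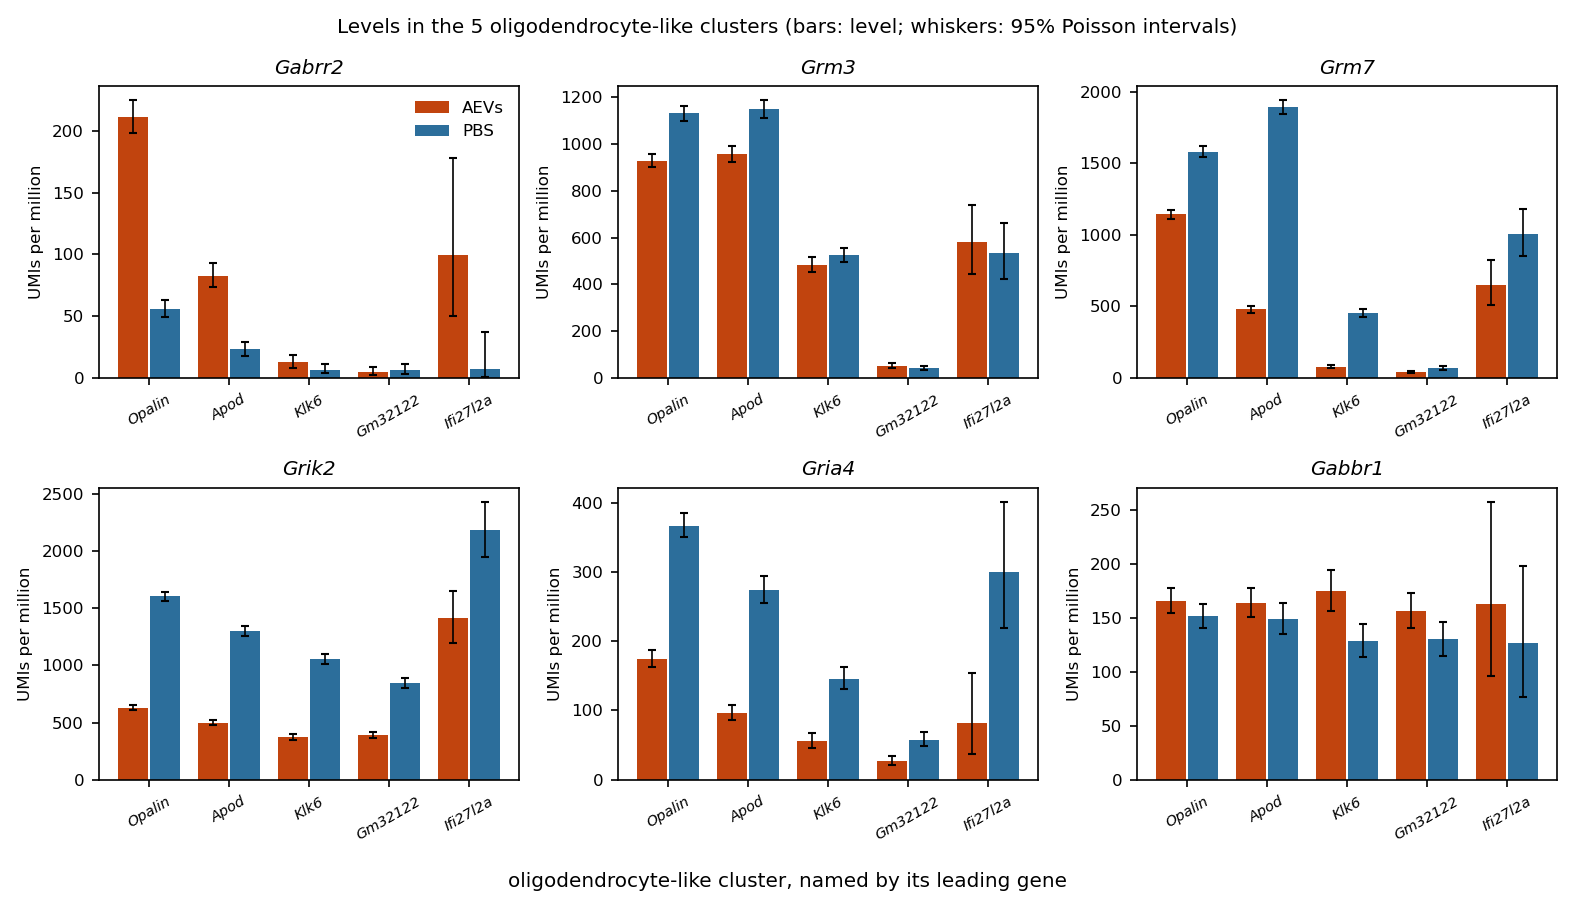
Levels of 6 receptor genes (CPM, bars from 0 with 95% Poisson whiskers) in the 5 oligodendrocyte-like clusters, AEVs bars left of PBS bars. Gabrr2 is higher in AEVs in the Opalin-led and Apod-led clusters, and Grik2 is lower in AEVs in all 5.

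In oligodendrocyte precursor-like nuclei the 22 members with at least 100 UMIs were all above free RNA, and 2 of them, beside 13.7% of all 5653 genes, differed by at least 1.5-fold. Both are GABA-A subunit genes of the chromosome 5 group and both were higher in AEVs (beside 6.85% of all genes). Gabrb1 measured 690.2 in AEVs (647 to 735) and 410.2 in PBS (382 to 439.8), a log2 ratio of 0.75 (0.61 to 0.89). With finer clusters, at Leiden resolution 2, the Gabrb1 log2 ratio was 0.50, under 1.5-fold. Gabrg1 measured 48.4 in AEVs and 23.3 in PBS, from 67 and 45 UMIs, a log2 ratio of 1.06 (0.49 to 1.64).

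The median log2 ratio of the members in precursors was 0.06, beside 0.02 over all genes. Among the AMPA genes the log2 ratio was 0.30 for Gria2, 0.05 for Gria3 and -0.15 for Gria4. Summed markers of mature oligodendrocytes stood at 2032 in AEVs and 3945 in PBS in this class, and those of astrocytes, where Gabrb1 and Gabrg1 were highest, at 601 and 451. Their part in these differences, and that of differentiating cells in the cluster, was not tested.

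In astrocyte-like nuclei 3 of 30 members passed 1.5-fold, beside 8.57% of all 9699 genes, 1 of them higher in AEVs (beside 5.58%) and 2 lower (beside 2.99%), and the median log2 ratio was -0.06 over members and 0.04 over all genes. Gabra2, for the alpha2 subunit, was lower in AEVs and was the one of them above free RNA. It measured 424 in AEVs (405 to 444) and 752 in PBS (725 to 780.5), a log2 ratio of -0.83 (-0.91 to -0.74). It had 444 in AEVs and 852 in PBS in the Slc7a10-led cluster and 397 and 595 in the C3-led cluster, so it was lower in AEVs in both. With doublet calls kept its log2 ratio was -0.44, under 1.5-fold.

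The chromosome 5 neighbours of Gabra2 stayed under 1.5-fold in astrocyte-like nuclei, with log2 ratios of -0.12 for Gabrb1, 0.28 for Gabra4 and 0.04 for Gabrg1. Gabrg1 went opposite ways in the clusters, at 186 in AEVs and 159 in PBS in the Slc7a10-led and 58.6 and 80.5 in the C3-led one. Grin2a (18.3 and 12.2) and Grik1 (17.4 and 28.3) passed 1.5-fold but were not above free RNA, and at 1000 UMIs per nucleus their log2 ratios were -0.078 and 0.029. Also above free RNA were Gria1 (308 and 332), Grik4 (57.3 and 82.6) and Grik5 (62.3 and 62.8). Summed astrocyte markers were 10387 in AEVs and 12477 in PBS and neuron markers 1026 and 986 in this class; their part was not tested.

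In microglia-like nuclei no member was above free RNA. Of 7 members with at least 100 UMIs, 3 passed 1.5-fold, beside 13.4% of all 5588 genes, all lower in AEVs (beside 4.58%). Among them Grik2 had 47.9 in AEVs and 94.4 in PBS and Grm7 74.0 and 128. With doublet calls kept the log2 ratio of Grm7 was 0.027 and that of Grik2 -0.13.

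The remaining classes held few receptor genes with at least 100 UMIs. Fibroblast-like nuclei had 5 of 15 past 1.5-fold, beside 14.5% of all genes, and the one above free RNA was Gabbr1, higher in AEVs, with 88.4 in AEVs and 57.4 in PBS. Schwann-like nuclei had 1 of 3, beside 20.8%: Grik2, lower in AEVs, with 729 in AEVs and 1153 in PBS. In the Schwann-like cluster 8 oligodendrocyte markers were raised too, and Grik2 was also lower in AEVs in oligodendrocyte-like nuclei. The part of oligodendrocyte RNA in the Schwann-like Grik2 difference was not tested. Endothelial-like nuclei had 1 of 10 (beside 11%), ependymal-like nuclei 6 of 16 (beside 15.6%) and myeloid nuclei led by Gpnmb 3 of 7 (beside 14.8%), none of them above free RNA.

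**Figure D5:**
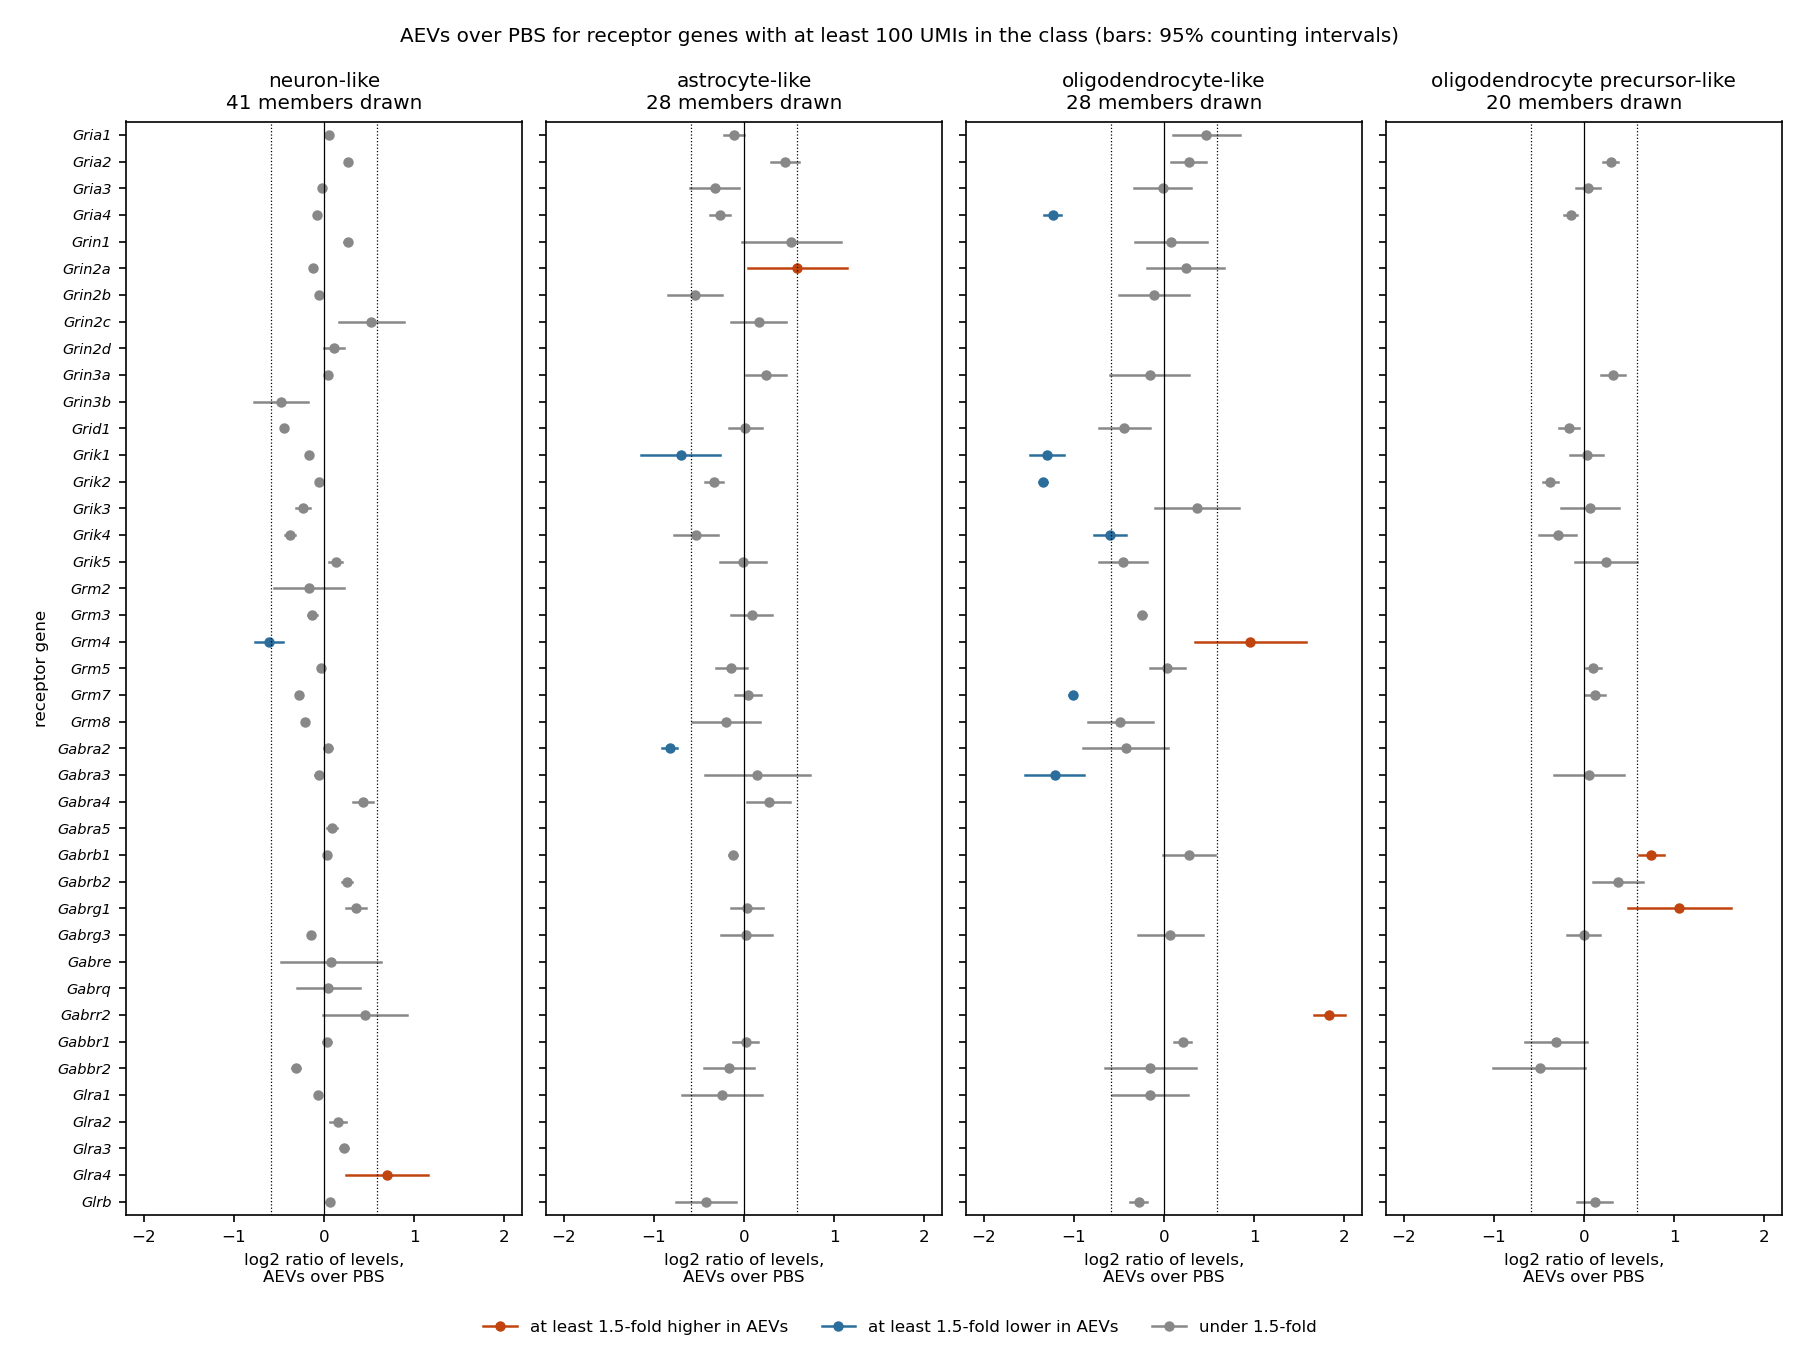
Log2 ratio of levels, AEVs over PBS, for the receptor genes described here with at least 100 UMIs in neuron-like, astrocyte-like, oligodendrocyte-like and oligodendrocyte precursor-like nuclei, with bars for 95% counting intervals and dotted lines at 1.5-fold. Most points in neuron-like nuclei lie near 0, and in oligodendrocyte-like nuclei Gabrr2 stands at 1.83 and Grik2 at -1.34.

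In neuron-like nuclei few receptor genes differed by much between the libraries. Of 46 members, 33 were within 1.2-fold and 2 passed 1.5-fold, beside 12.4% of all 15547 genes. The median log2 ratio was 0.00 over members and 0.10 over all genes. Without the shallow and mixed sub-clusters these medians were -0.06 and 0.12. By subtype they were -0.05 and 0.11 in glycinergic, -0.08 and 0.08 in GABAergic and -0.11 and 0.11 in dorsal-type excitatory neurons. In other excitatory neurons they were -0.10 and 0.10 and in cholinergic neurons 0.06 and 0.06. Glra4, a glycine receptor alpha subunit gene, was higher in AEVs, with 2.46 in AEVs and 1.52 in PBS, from 108 and 68 UMIs. Its log2 ratio was 0.69 (0.24 to 1.15), and -0.51 at 1000 UMIs per nucleus. Grm4, for a presynaptic group III receptor, was lower, at 12.8 in AEVs and 19.6 in PBS. Its log2 ratio was -0.62 (-0.77 to -0.46), and -0.23 at 1000 UMIs per nucleus. With the clusters weighted to the same mix in both libraries both were under 1.5-fold, at 0.39 for Glra4 and -0.52 for Grm4.

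Members with many UMIs in their roles stayed under 1.5-fold in neuron-like nuclei. Of those given here, Gria2, higher in AEVs, and Grm7, lower, lay outside 1.2-fold. Gria4 was at 1297 in AEVs and 1371 in PBS, Gria2 at 1220.1 and 1017 and Grin2b at 503 and 523. Grm7 was at 1914 in AEVs and 2314 in PBS, Grm5 at 1772 and 1814 and Grik2 at 1424 and 1481. On the inhibitory side, Gabrg3 was at 582 in AEVs and 646 in PBS, Gabra2 at 219.9 and 213, Gabbr1 at 154 and 151, Glra1 at 307 and 322 and Glrb at 257 and 246. Summed oligodendrocyte markers in these nuclei were 627 in AEVs and 970.4 in PBS and astrocyte markers 175 and 255; their part in the ratios was not tested.

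Of 37 members with at least 100 UMIs in every neuron subtype, 3 were higher in AEVs in all 5 subtypes, 7 were lower in all 5 and 27 were mixed. Of all 6490 genes past that floor in every subtype, 27.1% were higher in all 5 and 12.5% were lower in all 5. The 3 were Gria2 (log2 ratios 0.12 to 0.40), Grin1 (0.06 to 0.82) and Gabrb2 (0.20 to 0.43). Among the 7 were Grin2a (-0.25 to -0.09), Grin2b (-0.18 to -0.09), Grik4 (-0.50 to -0.17), Grid1 (-0.64 to -0.24), Grm4 (-1.22 to -0.33) and Gabbr2 (-0.40 to -0.16). The subtypes come from the same pair of libraries, so their directions are not independent.

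Glycinergic neurons had 2 of 39 members past 1.5-fold, beside 11.3% of all genes: Gabra4, higher in AEVs (beside 9.92%), at 34.4 in AEVs and 22.1 in PBS and Grid1, lower (beside 1.35%), at 342 and 533. GABAergic neurons had 1 of 39, beside 9.64%, which was Grm4, lower in AEVs (beside 1.64%), at 13.7 in AEVs and 21.3 in PBS. Dorsal-type excitatory neurons had 2 of 40, beside 10.2%, both kainate receptor genes that were lower in AEVs (beside 1.68%): Grik1 at 274 in AEVs and 417 in PBS and Grik3 at 16.5 and 25. In these 3 subtypes the share of members past 1.5-fold was below that of all genes in either direction combined, and above it for genes lower in AEVs, which rests on 1 or 2 members each.

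Other excitatory neurons had 5 of 39 members past 1.5-fold, beside 13.1% of all genes, 1 of them higher in AEVs (beside 10.7%) and 4 lower (beside 2.39%). Gabrg1 was the higher one, with 25.4 in AEVs and 15.5 in PBS. Lower were Grid1 (560.5 and 855), Grm4 (14.0 and 32.7), Grm7 (1487 and 2459) and Grik3 (36.5 and 78.5).

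Cholinergic neurons had 8 of 38 members past 1.5-fold, beside 12.0% of all genes, 6 of them higher in AEVs (beside 7.58%) and 2 lower (beside 4.47%). Higher in AEVs were the NMDA genes Grin1 (267 and 151) and Grin2d (32.9 and 20.8), the glycine receptor gene Glra3 (72.2 and 37.2), Grm5 (552 and 359), Grm3 (143 and 95.2) and Grik1 (172 and 107). Lower were Grin3b (25.9 and 40.3) and Grm4 (14.3 and 33.2). The number of nuclei in this subtype was 176 in AEVs and 254 in PBS, with median depths of 4694 and 1886.5 UMIs. Summed neuron markers in it were 10606 in AEVs and 12932 in PBS, oligodendrocyte markers 455 and 615, astrocyte markers 103 and 158, Schwann markers 134 and 201 and fibroblast markers 20.4 and 81.5. The part of depth and of these markers in the differences was not tested.

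Genes that work with the receptors were followed from lists in neuron-like nuclei. Each list stands beside all genes of that class, of which 12.4% passed 1.5-fold, with a median log2 ratio of 0.10. Of 14 AMPA receptor auxiliary genes none passed 1.5-fold (median log2 ratio -0.08), from Cacng7 (-0.44) and Cacng2 (-0.43), for TARP subunits, to Porcn (0.22) and Cnih2 (0.51). Of 7 kainate and delta receptor partners (median 0.07) 1 passed, Cbln1, a cerebellin that links delta receptors to neurexins, higher in AEVs, with 21.0 in AEVs and 12.8 in PBS (log2 ratio 0.71); Cbln2 was at 0.52 and Nrxn3 at -0.25. Of 17 excitatory scaffold genes none passed (median -0.14), from Grip1 (-0.52) and Nlgn1 (-0.31) to Camk2a (0.27) and Pick1 (0.30).

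Of 12 inhibitory scaffold genes none passed (median 0.06), from Iqsec3 (-0.16) and Shisa7 (-0.11) to Mdga1 (0.35) and Insyn1 (0.37). Of 10 genes of glutamate release and uptake (median -0.09) 1 passed, the glial glutamate transporter gene Slc1a2, lower in AEVs, with 60.0 in AEVs and 95.7 in PBS (log2 ratio -0.67). Slc1a3 was at -0.52, Slc17a8 at 0.22 and Slc38a2 at 0.25. Slc1a2 and Slc1a3 are astrocyte markers, and the part of astrocyte RNA in these nuclei was not tested. Of 12 genes of GABA and glycine synthesis, release and uptake none passed (median -0.01), from Slc6a9 (-0.53) and Slc6a11 (-0.41) to Slc32a1, the vesicular transporter (0.39). Of 12 metabotropic receptor partners none passed (median -0.12), from Gnao1 (-0.29) and Plcb1 (-0.22) to Gnai1 (-0.02) and Kcnj9 (0.45).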

How the data were processed

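Single-nucleus RNA was read from injured mouse cord in 2 libraries, AEVs and PBS, each 1 pool of 3 mice. The deposited matrices hold UMI counts per gene and barcode, made by the authors with a 3′ droplet kit per the labels' protocols; genome build mm10 and Seurat are named in the submitters' processing notes. How introns and strand were counted is not given in the sources used here.

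Nuclei with at least 300 genes, at least 500 UMIs and at most 5% mitochondrial UMIs were kept. Doublets were scored with Scrublet in scanpy (1.11.5) and removed at a score of 0.15, a threshold set after the automatic one failed in PBS; this took 7.68% of AEVs and 6.32% of PBS nuclei. Clustering used 2000 variable genes without the receptor genes, 30 components, 20 neighbours and Leiden resolution 1 (leidenalg 0.10.2); neurons were clustered again with 50 components, 15 neighbours and resolution 3. Classes came from marker lists, and the scoring and subtype rules were chosen after seeing the data. Inhibitory sub-clusters were glycinergic with Slc6a5 at 100 CPM or more, otherwise GABAergic; excitatory ones were dorsal-type with Ebf2 at 100 or Lmx1b at 30 CPM or more; cholinergic ones had Chat, Slc5a7 and Slc18a3 summing to at least 100. A class is reported where both libraries held 100 or more of its nuclei.

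Levels have exact Poisson intervals, shares exact Clopper-Pearson intervals and ratios exact conditional binomial intervals, at 95%. No test between libraries was made, and a gene counts as past 1.5-fold among genes whose UMIs sum to 100 or more over AEVs and PBS. The TMM (edgeR 4.0.16) and median-of-ratios (DESeq2 1.42.0) scalings in R 4.3.3 were alternatives only. Positions came from GENCODE, which held 52 of 52 members, and promoters from RefSeq, which held 36 of them.

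Named members were those past 1.5-fold in the neuron, astrocyte, oligodendrocyte, precursor and microglia classes, the 3 most particular to each class by ratio to the next, those above free RNA in non-neuronal classes, and the member with the most UMIs in each role; of each partner list, the 2 highest and 2 lowest ratios. Some genes that this rule names are not reported here. Members past 1.5-fold in single neuron subtypes, and members that moved 1 way in all 5, were named after their values were seen. Members and lists were chosen with earlier results of these data known.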

Additional observations from a re-analysis of the deposited data

Results flagged for a closer look

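For Grik1 and Grm4 the ratio of AEVs over PBS pointed opposite ways in different classes of nuclei, past 1.5-fold in each; with 1 library per group these differences were not tested. Grik1, a kainate receptor gene, had log2 ratios of 0.69 in cholinergic neurons, -1.30 in oligodendrocyte-like nuclei, -0.70 in astrocyte-like nuclei and -0.61 in dorsal-type excitatory neurons. The cholinergic value exceeded the oligodendrocyte-like one by 1.98, the astrocyte-like one by 1.39 and the dorsal-type excitatory one by 1.30. Grm4, a group III metabotropic receptor gene, had 0.95 in oligodendrocyte-like nuclei, -1.22 in other excitatory neurons, -1.21 in cholinergic neurons and -0.63 in GABAergic neurons. The oligodendrocyte-like value exceeded the other excitatory one by 2.18, the cholinergic one by 2.16 and the GABAergic one by 1.58. With doublet calls kept the oligodendrocyte-like Grm4 value, the one positive value of that gene here, from 70 and 35 UMIs in AEVs and PBS, became -0.25. The astrocyte-like Grik1 value became 0.029 at 1000 UMIs per nucleus. Neither gene was above free RNA in oligodendrocyte-like nuclei, nor was Grik1 in astrocyte-like nuclei.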

How the results depend on the processing

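No paired analysis was possible because each group is 1 library. Of 74 alternatives of the counts and medians, 59 stayed within 1.5 times the count or 0.1 of the median, and 15 moved. The neuron-like median became -0.10 under TMM scaling, which shifts every gene of the class alike. The median over all genes went from 0.10 to -0.00046 with it. The neuron-like count of 2 became 1 at a floor of 300 UMIs, 4 at 1 UMI in each library, 4 with doublet calls kept, 4 as a mean over nuclei and 0 after thinning to 1000 UMIs. The astrocyte-like count of 3 became 6 at a floor of 50, 1 at a floor of 300, 12 at 1 UMI in each library, 1 after thinning and 5 with the free-RNA level subtracted, an alternative added after seeing the data. The precursor count of 2 became 4 at a floor of 50, 1 at a floor of 300, 10 at 1 UMI in each library and 1 after thinning. The oligodendrocyte-like count of 8 stayed within 1.5 times, and 6 to 8 of its members were shared with each alternative. An equal count did not always hold the same members: at the same mix of clusters the neuron-like count was again 2, but Glra4 (0.39) and Grm4 (-0.52) were lost and Gabrr2 and Grin2c passed, and with doublet calls kept the astrocyte-like count was again 3 with 0 shared. At Leiden resolution 2 the precursor count was again 2, but Gabrb1 (0.50) was lost and Gabbr2, lower in AEVs, passed. With lower floors more genes enter and with thinning fewer UMIs, and otherwise the cause was not tested. Of 247 alternatives of 18 member ratios, 240 kept their direction. The 7 that turned were Glra4 in neuron-like nuclei (-0.51 thinned), Grin2a in astrocyte-like nuclei (-0.32 with doublet calls kept, -0.078 thinned), Grik1 in astrocyte-like nuclei (0.029 thinned), Grm4 in oligodendrocyte-like nuclei (-0.25 with doublet calls kept) and Grm7 in microglia-like nuclei (0.027 with doublet calls kept, 0.026 thinned). The Gabrr2 log2 ratio in oligodendrocyte-like nuclei ranged from 1.70 to 2.12. Of the 36 members with 1 leading class in both libraries, 28 did so also with doublet calls kept and 27 after thinning. With 1 pool per group, differences between pools, mice and treatment cannot be told apart.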

Other observations

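Partner genes of the receptors also differed in glia. In oligodendrocyte-like nuclei 55 genes of the partner lists had at least 100 UMIs, of which 5 were at least 1.5-fold higher in AEVs (beside 12.5% of all genes) and 6 lower (beside 4.44%). Kctd16, for an auxiliary subunit of GABA-B receptors, was higher, with 193 in AEVs and 107 in PBS (CPM), as were Homer3, a metabotropic receptor scaffold gene, at 31.3 and 18.1, Itpr1, for the calcium channel downstream of group I receptors, at 58.3 and 34.1, the AMPA auxiliary gene Cnih3 at 6.14 and 3.76 and Shmt2, of glycine synthesis, at 7.11 and 3.92. Among those lower in AEVs were the neuroligin gene Nlgn1, with 149.7 in AEVs and 247 in PBS, and Gnai1, for an inhibitory G protein subunit, at 143 and 233. Also lower were the AMPA auxiliary gene Cacng2, with 3.39 in AEVs and 6.85 in PBS, and the transporter genes Slc1a2 at 22.7 and 34.1 and Slc6a11 at 4.36 and 6.85. Slc1a2 is an astrocyte marker and Slc6a11 a leading gene of the Slc7a10-led astrocyte-like cluster. Summed astrocyte markers in oligodendrocyte-like nuclei were 235 in AEVs and 249 in PBS. No free-RNA threshold was applied to the partner genes, and the part of RNA from other classes was not tested.

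In astrocyte-like nuclei 15.1% of 53 partner genes differed by at least 1.5-fold, beside 8.57% of all genes. By direction, 2 of the 53 were at least 1.5-fold higher in AEVs (beside 5.58% of all genes) and 6 lower (beside 2.99%). Higher were the glutamine transporter gene Slc38a2, with 118 in AEVs and 77.3 in PBS, and Kctd12b at 15.8 and 8.21. Lower were Plcb1, for a phospholipase C of group I receptor signalling, with 1339.5 in AEVs and 2045 in PBS, and the glycine transporter gene Slc6a9 at 192 and 309. The AMPA auxiliary gene Cacng8, with 14.2 in AEVs and 22.8 in PBS, and the scaffold and kinase genes Shank2 at 13.7 and 22.5, Homer2 at 13.5 and 23.8 and Camk2a at 9.16 and 17.5 were also lower. Here too no free-RNA threshold was applied, and the part of RNA from neurons and other classes was not tested.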
